A study of Homo sapiens with 16 samples.

Results

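The ERK feedback genes described here are 10 protein-coding genes that cells switch on when the RAS-RAF-MEK-ERK kinase cascade is active, and most of whose products then damp or relay that cascade. They are DUSP1, DUSP4, DUSP5, DUSP6, SPRY2, SPRY4, SPRED1, ETV4, ETV5 and PHLDA1, matched by name to the genes of the 6 tables of the series. This set and the pathway lists below were chosen with earlier results of these data known. Their counts beside the shares of all genes are thus a description and no test of the set. All 10 were listed in each table of HCT116 and 9 in each table of U2OS, where DUSP4 was not listed. They stand among 19315 genes listed in at least 1 table, and the 9 among 12069 listed in every table.

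RNA was sequenced from 16 libraries, 2 in each of 8 groups, which the series' design text describes as biological replicates. HCT116 is a human colorectal carcinoma line, and U2OS is a human osteosarcoma line. Each line received, for 48 h, small interfering RNA (siRNA) without a target (siCtrl), against MYBL1 (siMYBL1), against MYBL2 (siMYBL2), or against both (the double knockdown, siMYBL1-siMYBL2). Both siRNA targets encode MYB-family transcription factors, A-MYB (MYBL1) and B-MYB (MYBL2), and the study asked what each does in the mitotic cell cycle and whether A-MYB can stand in for B-MYB. Each knockdown group is thus a transient knockdown in an established line, and how many siRNA sequences were used is not given in the sources used here.

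In the cascade, a receptor such as EGFR recruits the adaptors GRB2 and SHC1 and the exchange factor SOS1, which load RAS with GTP, and RAS then starts the relay through RAF, MEK and ERK kinases. Active ERK induces its own brakes. The dual-specificity phosphatases remove the activating phosphates of ERK and related kinases, DUSP6 in the cytoplasm and DUSP1, DUSP4 and DUSP5 in the nucleus, whereas Sprouty (SPRY2, SPRY4) and SPRED proteins act near receptors, RAS and RAF. ETV4 and ETV5 are ETS-family transcription factors that carry the signal on to further genes, and PHLDA1, a pleckstrin homology-like domain protein, is a widely used marker of ERK output. The RNA of these genes is often read as a gauge of ERK activity; neither ERK phosphorylation nor protein was measured in these files.

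The knockdowns were incomplete for MYBL1. MYBL1 RNA stood at 31.4% of siCtrl after siMYBL1 and 27.8% after the double knockdown in HCT116, and at 50.7% and 43.5% in U2OS, from the fold changes in the authors' deposited tables. MYBL2 RNA was at 9.05% (siMYBL2) and 9.92% (double) in HCT116 and at 4.53% and 4.34% in U2OS by the same deposited tables. The loss of MYBL2 after the double knockdown was deeper in U2OS than in HCT116, by 1.19 on the log2 scale (SE 0.25, adjusted p = 0.00079), so the lines differ in the extent of the knockdown as well as in kind; its part in the differences below was not tested. All 8 epithelial markers were listed in each table of HCT116, and 5 to 6 of 8 in those of U2OS. Of 8 mesenchymal markers, 4 to 6 were listed in HCT116 and 6 to 7 in U2OS, with SPARC at 1406 and VIM at 1544 normalized counts per 1000000 (CPM) in siCtrl. Mesenchymal markers summed to 35.3 to 39.9 CPM in siCtrl of HCT116 and to 4234 to 4295 in that of U2OS. Epithelial markers summed to 3861 to 3873 CPM in HCT116 and 3416 to 3422 in U2OS, where the keratins KRT8 and KRT18 were high (2307 and 1044 CPM) and CDH1 low (0.771 CPM), and none of 5 blood cell markers was listed in either line. The deposited tables hold no values per library, so the depth of a library and the spread between the 2 libraries of a group cannot be shown; the authors' standard error (SE) of each log2 fold change takes that place.

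Promoter windows of RefSeq (build GRCh38.p14, 250 bases before to 50 after a start) were found for 6 of the 10 genes, DUSP1, DUSP6, SPRY2, SPRY4, SPRED1 and PHLDA1, as 8 windows of which SPRY2 has 3. DUSP4, DUSP5, ETV4 and ETV5 had no entry. The only SPRY4 window, chr5:142324198-142324497, lies inside the gene as annotated, downstream of its 5′ end at 142326455. The same holds for the SPRY2 windows chr13:80339610-80339909 and chr13:80340059-80340358, with the 5′ end of that gene at 80341126. Short stretches are shown that hold the cyclic AMP response element (CRE) TGACGTCA, the ETS core CCGGAA, bound by the family of ETV4 and ETV5, or the MYB core AACNG, searched because MYB factors were knocked down. Each was searched on both strands. Each stretch reads 5′ to 3′ along the gene, with the match in capitals.

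DUSP1, CRE, chr5:172771302-172771331, minus strand: ggcagggcgggTGACGTCAccgccccgtca
PHLDA1, ETS core, chr12:76031848-76031877, minus strand: gaggagaggagtTTCCGGggctcgggtccg
SPRY2, ETS core, chr13:80341251-80341280, minus strand: tccctgcctcctCCGGAAaggcgagggcgc
DUSP6, MYB core, chr12:89352676-89352705, minus strand: cccgccgagcccgCTGTTgcagcttgtttg
DUSP6, MYB core, chr12:89352582-89352611, minus strand: tcatcaacacaacCTGTTccagccggcccg
DUSP6, MYB core, chr12:89352493-89352522, minus strand: attgagacgctcgCTGTTtgtatccattga
SPRY4, MYB core, chr5:142324443-142324472, minus strand: tggtcaggagccaCCGTTtgggtcgggggg

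The CRE of DUSP1 starts 125 bases before its RefSeq start, and 1.85% of the 35116 promoters in the table hold these letters. The ETS core stood 89 bases before the start of PHLDA1 and 142 before 1 start of SPRY2, against 17.2% of all promoters. The DUSP6 window held 5 MYB cores, the SPRY4 window 3, the SPRY2 windows 3, 1 and 3, the PHLDA1 window 1, and the DUSP1 and SPRED1 windows 0. MYB cores were thus found in genes that were and were not called below; the 3 of DUSP6 shown are those with the letters CTGTT, the reverse complement of AACAG. At least 5 matches occur in 3.76% of promoters, at least 3 in 23.7% and any match in 77.2%, with a median of 1. The cell cycle homology region TTTGAA, searched because MuvB complexes bind it, was matched in DUSP1 and in 1 SPRY2 window (15.2% of promoters), and neither AP-1 (TGANTCA, 7.71%) nor the serum response element (1.29%) was matched in any of the 8 windows. An ETS core can run into a MYB core that begins with its last letters AA, which is not the case in the stretches shown. A match is a run of letters and does not show that a factor binds there.

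In siCtrl, DUSP6 and SPRY4 differed most between the lines among the 9 genes listed in both. The mean of each group was derived from base mean and fold change in the authors' deposited tables and set per 1000000 (CPM) of the summed normalized counts of the 12069 genes listed in all of them. DUSP6 stood at 243.5 CPM in siCtrl of HCT116 and at 1.49 in siCtrl of U2OS, 164-fold lower. SPRY4 stood at 117.7 and 1.59 CPM, 74.1-fold lower in U2OS. DUSP5 (119.1 and 12.5 CPM, 9.53-fold) and PHLDA1 (561.5 and 63.7, 8.82-fold) were also lower in U2OS, and DUSP4 was at 130.1 in HCT116 only, with no value in U2OS. ETV5 was at 72.4 in HCT116 and 30.2 in U2OS. SPRY2 (7.78 and 5.82), SPRED1 (41.9 and 33.4) and ETV4 (58.1 and 48.1) lay within 1.34-fold of each other. DUSP1 alone was higher in U2OS, at 82.4 CPM against 20.9 in HCT116. The lines were fitted in separate tables without values per library, so these levels carry no error and no test between lines.

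Per kilobase of exon (GENCODE release 29), the order in HCT116 siCtrl ran from PHLDA1 at 69.6 CPM through DUSP6 at 53.6, DUSP5 at 46.6, SPRY4 at 23.6, ETV4 at 20.7, DUSP4 at 17.9, ETV5 at 16.7, DUSP1 at 10.3 and SPRED1 at 5.38 to SPRY2 at 2.56. In U2OS siCtrl it ran from DUSP1 at 40.8 through ETV4 at 17.1, PHLDA1 at 7.89, ETV5 at 6.98, DUSP5 at 4.89, SPRED1 at 4.29 and SPRY2 at 1.91 to DUSP6 at 0.327 and SPRY4 at 0.319. DUSP6, second in HCT116, was thus next to last in U2OS. Neighbours as close as ETV4 and DUSP4, or DUSP6 and SPRY4 in U2OS, cannot be ordered without a spread. The first place of DUSP1 in U2OS is also unsettled, as the SE of its log2 fold change there was 1.01 to 1.15.

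**Figure D1:**
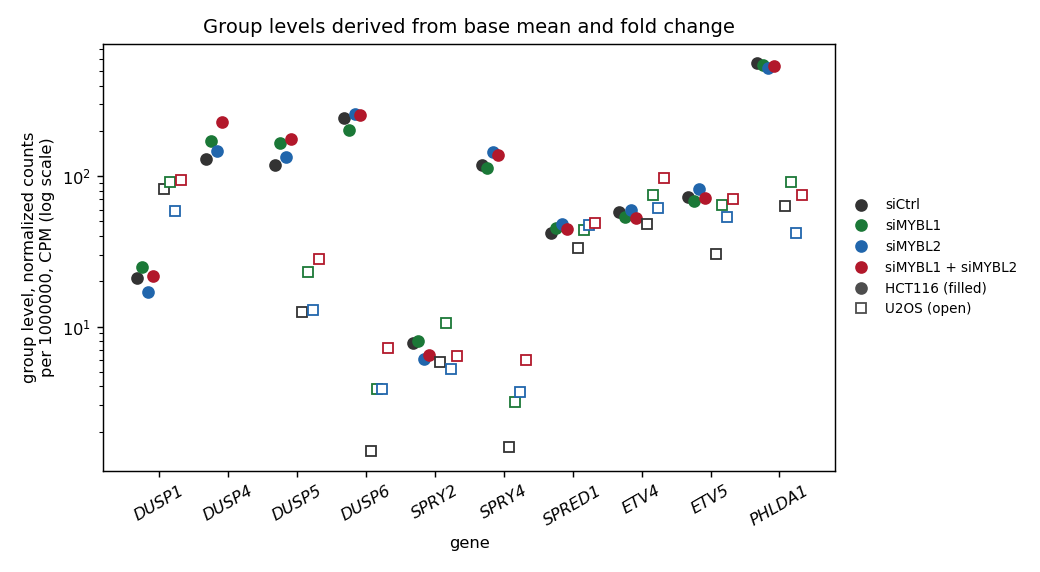
Level of each feedback gene in siCtrl and the knockdown groups, in CPM on a log axis, derived from base mean and fold change, with filled circles for HCT116 and open squares for U2OS. DUSP6 and SPRY4 sit near 1.5 CPM in U2OS siCtrl and above 100 in HCT116, and their knockdown groups in U2OS remain below every HCT116 group.

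In U2OS, 5 of the 9 listed genes were higher after the double knockdown and passed the authors' test (adjusted p under 0.05), where 12.6% of all genes passed in either direction and 6.55% as higher. The 5 were DUSP6 and DUSP5 among the phosphatases, SPRY4 among the Sprouty genes, and both ETS factors, ETV4 and ETV5. DUSP1, SPRY2, SPRED1 and PHLDA1 were not called. In bulk RNA, a change in every cell and a change in some of the cells cannot be told apart. All 9 values lay above 0, 6 of them with an unadjusted p under 0.05 (12.0% of all genes were higher at that level), and their median log2 fold change was 0.99 against 0.0087 over all genes. DUSP6 and SPRY4 had base means under 100 in every U2OS table. The 7 genes whose base mean reached 100 had a median of 0.49, and a test over such genes alone called 3. Some cell type markers were called in the same deposited table of the authors: of 7 listed mesenchymal markers, COL1A1 (0.51) and CDH2 (0.49) were higher and VIM (-0.71) lower, and of 6 epithelial markers KRT18 (-0.72) was lower. Their part in the result was not tested.

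Among the phosphatases, DUSP6 (ENSG00000139318, chr12:89347235-89352501, minus strand, hg38) went from 1.49 CPM in siCtrl to 3.86 after siMYBL1, 3.87 after siMYBL2 and 7.22 after the double knockdown of U2OS. The authors' deposited table gave its log2 fold change after the double knockdown as 2.27 (SE 0.49, adjusted p = 8.89e-05), or 4.83-fold. After either single knockdown the deposited tables gave 1.37 with siMYBL1 (SE 0.57, adjusted p = 0.151) and 1.32 with siMYBL2 (SE 0.63, adjusted p = 0.293), neither of which passed. The highest DUSP6 level in U2OS was still far below its level in any HCT116 group, where it ranged from 201.8 to 256.8 CPM in the knockdown groups. DUSP5 (ENSG00000138166, chr10:110497907-110511533, plus strand), the nuclear ERK phosphatase, stood at 12.5 CPM in siCtrl, 22.9 after siMYBL1, 13.0 after siMYBL2 and 28.2 after the double knockdown of U2OS. The authors' deposited table gave it a log2 fold change of 1.14 (SE 0.30, adjusted p = 0.00289) after the double knockdown, 0.91 (SE 0.31, adjusted p = 0.0593) after siMYBL1 and -0.01 (SE 0.34) after siMYBL2. The level of DUSP5 after siMYBL2 thus lay beside siCtrl and the level after siMYBL1 beside the double knockdown.

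SPRY4 (ENSG00000187678, chr5:142310427-142326455, minus strand), an inhibitor of receptor signalling to RAS, was at 1.59 CPM in siCtrl of U2OS, 3.15 after siMYBL1, 3.68 after siMYBL2 and 6.02 after the double knockdown. In the authors' deposited tables its log2 fold change was 1.77 with both siRNAs (SE 0.55, adjusted p = 0.0141), 1.05 with siMYBL1 (SE 0.63, adjusted p = 0.413) and 1.15 with siMYBL2 (SE 0.57, adjusted p = 0.321). SPRY2 did not share this order: it was at 5.82, 10.6, 5.19 and 6.40 CPM in siCtrl, siMYBL1, siMYBL2 and double knockdown. The authors' deposited tables gave SPRY2 a log2 fold change of 0.89 (SE 0.40, adjusted p = 0.204) after siMYBL1 and 0.09 (SE 0.45, adjusted p = 0.944) after the double knockdown. SPRED1, which holds the RAS regulator NF1 at the membrane, had nearly equal values of 0.43 (SE 0.22), 0.45 (SE 0.22) and 0.49 (SE 0.23) after siMYBL1, siMYBL2 and both in the authors' deposited tables, and none was called (adjusted p = 0.316, 0.316 and 0.172).

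ETV5 was the only one of the 9 genes called in all U2OS comparisons with siCtrl. ETV5 (ENSG00000244405, chr3:186046314-186110318, minus strand) stood at 30.2 CPM in siCtrl of U2OS, 64.2 after siMYBL1, 53.8 after siMYBL2 and 70.7 after the double knockdown. In the authors' deposited tables the log2 fold change was 1.12 with siMYBL1 (SE 0.28, adjusted p = 0.00346), 0.86 with siMYBL2 (SE 0.24, adjusted p = 0.0106) and 1.19 with both (SE 0.23, adjusted p = 8.11e-06). All 3 use the same siCtrl libraries, so they are not independent of each other. ETV4 (ENSG00000175832, chr17:43527844-43579620, minus strand) was at 48.1, 74.5, 61.6 and 97.9 CPM in the same order of groups. The authors' deposited table called it after the double knockdown (log2 fold change 0.99, SE 0.20, adjusted p = 2.56e-05) but not after siMYBL1 (0.66, SE 0.23, adjusted p = 0.0667) or siMYBL2 (0.29, SE 0.22, adjusted p = 0.693).

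With siMYBL1 in U2OS, ETV5 was thus the 1 of 9 genes to pass, where 5.71% of all genes passed and 3.44% were higher. At an unadjusted p under 0.05, 6 of 9 were higher (DUSP5, DUSP6, SPRY2, ETV4, ETV5 and PHLDA1) against 9.89% of all genes, and all 9 lay above 0 with a median of 0.89 against 0.019 over all genes. The siCtrl levels of DUSP6 (25.4 normalized counts) and SPRY4 (25.9) lay below the lowest base mean listed there, 30.2. Both were thus listed only because their siMYBL1 groups were high (65.9 and 53.7). Their values above 0 were favoured in advance and lend no weight to these counts and this median. With siMYBL2 in U2OS, 2 of 9 passed, against 5.2% of all genes. ETV5 was higher, as were 1.69% of all genes, and PHLDA1 lower, as were 3.51%. There 4 genes were higher at an unadjusted p under 0.05 (DUSP6, SPRY4, SPRED1 and ETV5, against 6.09%). Of the 9 values 5 lay above 0 and 4 below, and the median was 0.29 against 0.0058 over all genes, or 0.14 over the 6 members whose base mean reached 100. After siMYBL1 the median of the 7 such members was 0.66. Among the mesenchymal markers, COL1A1 (0.73) was higher after siMYBL1 and VIM (-0.46) lower after siMYBL2 in the authors' deposited tables, and no epithelial marker was called; their part in these results was not tested.

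PHLDA1 differed between the single knockdowns of U2OS. The level of PHLDA1 (ENSG00000139289, chr12:76025447-76031776, minus strand) was 63.7 CPM in siCtrl, 91.4 after siMYBL1, 42.0 after siMYBL2 and 75.4 after the double knockdown. The authors' deposited tables gave log2 fold changes of 0.56 with siMYBL1 (SE 0.19, adjusted p = 0.0628), -0.66 with siMYBL2 (SE 0.21, adjusted p = 0.0316) and 0.21 with both (SE 0.22, adjusted p = 0.665). The difference between siMYBL1 and siMYBL2 was 1.21 (SE 0.28, adjusted p = 0.00166), which is the gap between both fold changes, tested against the square root of their SE squares added up and adjusted over all genes. PHLDA1 was the 1 of 9 genes called in that comparison, where 2.92% of all genes were. The group of siMYBL1 was high, that of siMYBL2 low, and the double knockdown lay between them.

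**Figure D2:**
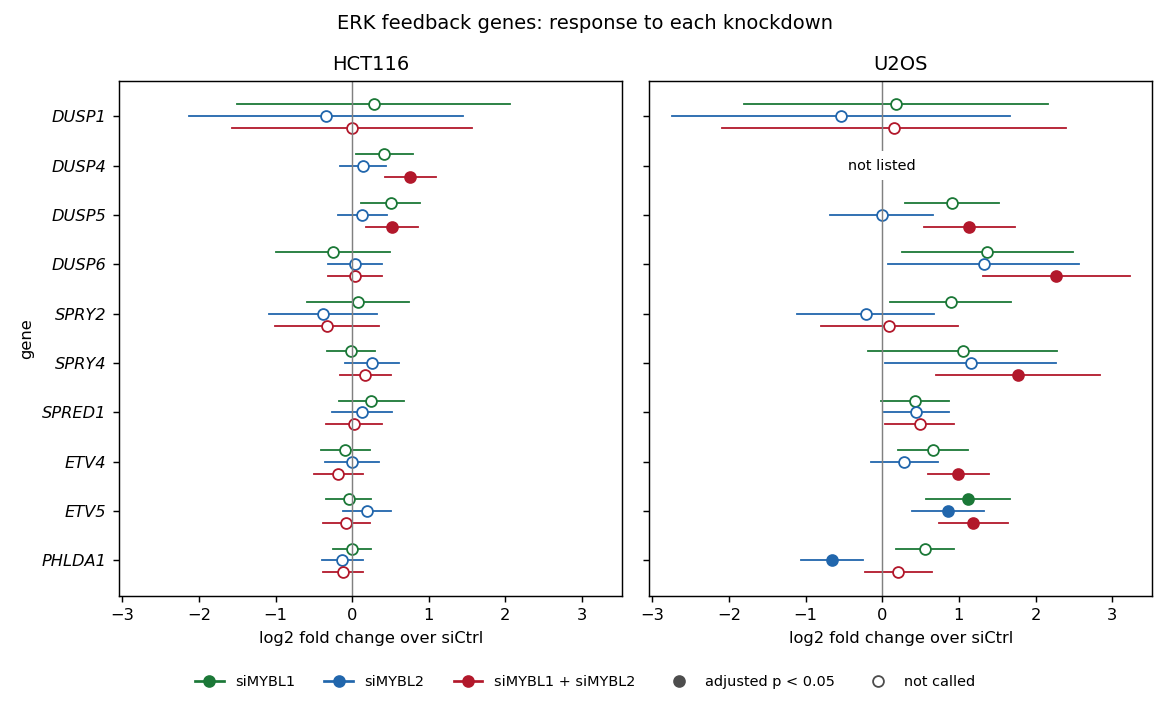
Log2 fold change over siCtrl of each feedback gene in the 2 lines, with 95% confidence intervals from the authors' SE and filled points for an adjusted p under 0.05. Most HCT116 points sit near 0 except DUSP4 and DUSP5, while all 9 U2OS points of the double knockdown lie to the right of 0 and the siMYBL2 point of PHLDA1 lies at -0.66.

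In HCT116, the double knockdown called 2 of the 10 genes, both phosphatases and both higher, where 6.95% of all genes passed and 2.82% as higher. DUSP4, a nuclear phosphatase of ERK and related kinases, stood at 130.1 CPM in siCtrl, 170.6 after siMYBL1, 146.5 after siMYBL2 and 228.5 after the double knockdown of HCT116. The authors' deposited table gave DUSP4 a log2 fold change of 0.76 (SE 0.17, adjusted p = 0.00037) after the double knockdown. DUSP5 was at 119.1, 165.5, 134.1 and 177.7 CPM in the same order, with 0.52 (SE 0.18, adjusted p = 0.046) in that deposited table. DUSP5 was therefore called after the double knockdown in both lines. The other 8 genes had log2 fold changes between -0.33 (SPRY2) and 0.17 (SPRY4) in the authors' deposited table, and the median of the 10 was 0.012 against -0.017 over all genes. Of 8 epithelial markers in that deposited table of the authors, CDH1 (0.59) and KRT19 (0.50) were higher and ESRP1 (-0.78) lower, and none of 4 mesenchymal markers was called; their part in the result was not tested.

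After siMYBL1 alone in HCT116, no gene of the 10 was called by the authors' DESeq2 test, where 0.26% of all genes were. DUSP4 (log2 fold change 0.42, SE 0.19, adjusted p = 0.902) and DUSP5 (0.50, SE 0.20, adjusted p = 0.675) were the 2 with an unadjusted p under 0.05 in the authors' deposited table, against 4.57% of all genes. After siMYBL2 alone none was called by that test (1.13% of all genes) and none had an unadjusted p under 0.05 (8.07%). PHLDA1, the most abundant of the genes in HCT116 per length, had values of -0.0012 (SE 0.13) and -0.13 (SE 0.14) after siMYBL1 and siMYBL2 in the authors' deposited tables. DUSP6 had -0.25 (SE 0.38) and 0.04 (SE 0.18) in those deposited tables. Its SE after siMYBL1 was larger than that of nearly all genes of similar base mean, with 0.743% of them above it.

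DUSP1, an immediate early phosphatase, was not called in any comparison, and its values were the least precise. Its SE in the authors' deposited tables lay between 0.80 and 1.15, where genes of similar base mean had a median SE of 0.19 to 0.24. Of those genes, 0.218% to 0.315% in HCT116 and 0.0457% to 0.0599% in U2OS had a larger SE. The 95% interval of DUSP1 after the double knockdown of U2OS ran from -2.10 to 2.39 on the log2 scale in that deposited table, so that neither a 4-fold rise nor a 4-fold fall lay outside it. Which libraries gave this spread cannot be read from the tables.

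**Figure D3:**
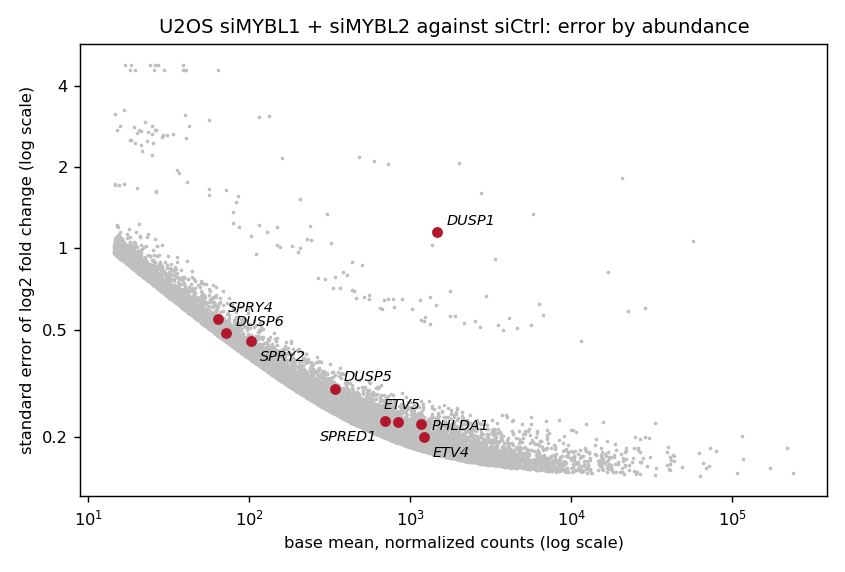
SE of the log2 fold change against base mean, both on log axes, for all 16803 genes in the authors' deposited table of the U2OS double knockdown (grey), with the 9 listed feedback genes in red. DUSP1 stands far above the band of genes of its abundance, and SPRY4 and DUSP6 lie at the low-abundance end, where the SE is large for all genes.

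The response to the double knockdown differed between the lines for 3 of the 9 genes, each higher in U2OS, where 1.27% of all genes differed and 0.517% in that direction. The lines share no library, so the errors of the fold changes are independent. DUSP6 differed by 2.23 (SE 0.52, adjusted p = 0.00499), from 0.04 in HCT116 to 2.27 in U2OS. ETV5 differed by 1.26 (SE 0.28, adjusted p = 0.00225), from -0.08 to 1.19, and ETV4 by 1.17 (SE 0.26, adjusted p = 0.00228), from -0.18 to 0.99. The difference for SPRY4 was 1.60 (SE 0.57, adjusted p = 0.187) with a 95% interval of 0.47 to 2.72, and did not pass. DUSP5 differed by 0.62 (SE 0.35, adjusted p = 0.629), with an interval of -0.07 to 1.30. The remaining 4 differences lay between 0.15 (DUSP1) and 0.46 (SPRED1).

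For the single knockdowns, no gene of the 9 differed between the lines by the same test. After siMYBL1, 0.0594% of all genes differed, and 4 of the 9 (DUSP6, ETV4, ETV5 and PHLDA1) had an unadjusted p under 0.05 against 4.79% of all genes. Of these 4, DUSP6 was listed after siMYBL1 in U2OS only because its knockdown group was high. The ETV5 difference was 1.16 (SE 0.32, adjusted p = 0.137). After siMYBL2, 0.215% of all genes differed, and ETV5 and PHLDA1 had an unadjusted p under 0.05, in opposite directions, against 4.41%. The intervals are wide: that of DUSP6 after siMYBL2 ran from -0.01 to 2.57.

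**Figure D4:**
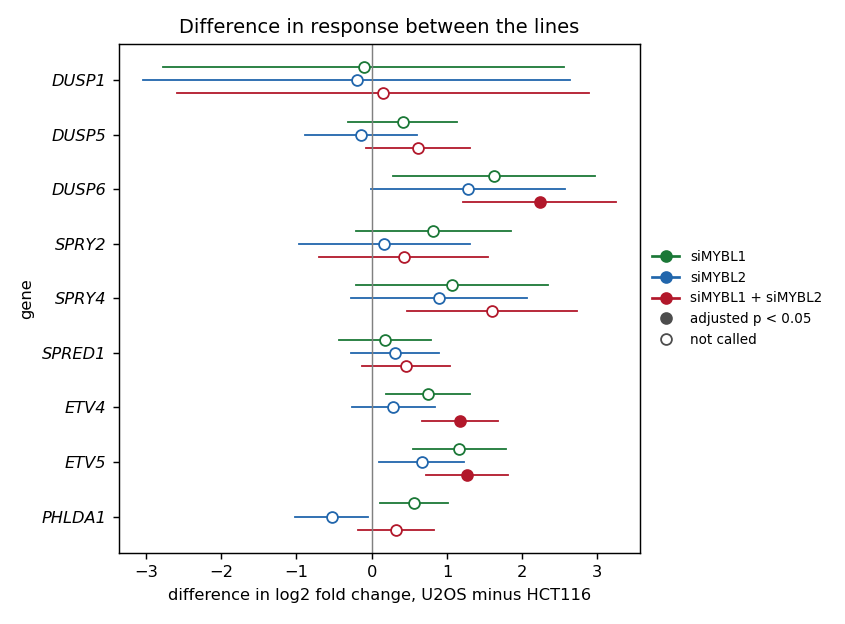
Difference in log2 fold change, U2OS minus HCT116, for the 9 genes listed in both lines, with 95% confidence intervals and filled points for an adjusted p under 0.05. DUSP6, ETV4 and ETV5 after the double knockdown are the filled points, at 2.23, 1.17 and 1.26.

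Whether losing both factors differed from losing 1 was compared within each line. In U2OS, no gene of the 9 differed between the double knockdown and siMYBL2 at an adjusted p under 0.05 (1.05% of all genes did). DUSP5 (1.14, SE 0.46, adjusted p = 0.456), ETV4 (0.71, SE 0.30, adjusted p = 0.552) and PHLDA1 (0.87, SE 0.30, adjusted p = 0.237) were higher at an unadjusted p under 0.05, against 5.57% of all genes. Shared siCtrl libraries make this error too large. With the part of the variance due to siCtrl, taken as 0.5, removed from it, these 3 genes were called, and DUSP5 was also called between siMYBL1 and siMYBL2. The smaller error applies to every gene, and how many of all genes were then called was not counted. These calls thus have no share of all genes beside them. Between the double knockdown and siMYBL1 of U2OS, none of the 9 differed (1.54% of all genes), also none at an unadjusted p under 0.05 (6.96%); the differences were 0.90 (SE 0.75) for DUSP6, 0.72 (SE 0.83) for SPRY4 and 0.33 (SE 0.31) for ETV4.

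In HCT116 none of the 10 genes differed between the double knockdown and siMYBL2 (0.645% of all genes), and DUSP4, at 0.62 (SE 0.23, adjusted p = 0.541), was the 1 with an unadjusted p under 0.05 (3.25%). With the siCtrl part of the variance removed, DUSP4 was called, again without a count over all genes. None differed between the double knockdown and siMYBL1 (1.28%) or between siMYBL1 and siMYBL2 (0.493%), nor did any at an unadjusted p under 0.05 (5.64% and 5.24% of all genes).

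The double knockdown was also compared with the sum of the single ones on the log2 scale. No gene of the 10 in HCT116 (0.14% of all genes) and none of the 9 in U2OS (0.211%) departed from that sum by this test, and none did at an unadjusted p under 0.05 (1.13% and 1.36%). The fold changes in this sum share siCtrl libraries, which makes the error too large and the p-values too high. With the siCtrl part of the variance counted once instead of with every fold change, again none was called at an adjusted p under 0.05. The lack of calls therefore does not show that the effects add up. For DUSP6 in U2OS the departure was -0.42 with a 95% interval of -2.34 to 1.5, and for SPRY4 -0.43 (-2.41 to 1.55), so departures of several fold lie within the error. The departure of ETV4 was 0.04 (-0.70 to 0.79). ETV5 had the lowest value, -0.79 (-1.64 to 0.06).

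Upstream of the feedback genes, 6 of 11 listed ligands and receptors were higher and none lower after siMYBL1 in U2OS (5.71% of all genes changed). After the double knockdown 4 of 11 were higher and none lower (12.6%), and after siMYBL2 none of 10 was called (5.2%). The list holds 13 genes, and the difference between knockdowns was not tested for it. AREG, 1 of the 6, was the gene not listed after siMYBL2. Its siCtrl level lay below the lowest base mean listed after siMYBL1, which was 30.2, so it was listed there only because its knockdown group was high. The count of 6 of 11 beside none of 10 thus depends in part on which genes were listed. HBEGF, a ligand of EGFR that is itself induced by ERK, had a log2 fold change of 1.57 (SE 0.22, adjusted p = 4.06e-10) after siMYBL1 in the authors' deposited table and 1.5 (SE 0.22, adjusted p = 9.38e-10) after the double knockdown. MET, the hepatocyte growth factor receptor, had 1.61 (SE 0.30, adjusted p = 1.6e-05) and 1.53 (SE 0.29, adjusted p = 4.57e-06) in those deposited tables. The 1 call on the list in the 3 deposited tables of HCT116 was AREG, another EGFR ligand, at 0.94 (SE 0.18, adjusted p = 1.11e-05) after the double knockdown. AREG was also among the higher genes of U2OS, at base means of 54.7 and 48.0. The authors' deposited tables gave it 1.97 (SE 0.52, adjusted p = 0.00707) after siMYBL1 and 1.70 (SE 0.56, adjusted p = 0.0248) after both there. The medians of the list in U2OS were 0.97, -0.10 and 0.56 after siMYBL1, siMYBL2 and both, against 0.019, 0.0058 and 0.0087 over all genes.

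Within the kinase cascade, GRB2, the adaptor between receptors and SOS1, was the 1 gene of 21 called lower. It was called lower in each of the 4 tables of cells that received siMYBL2. Over all genes, 1.13% were called after siMYBL2 and 6.95% after both in HCT116, and 5.2% and 12.6% in U2OS. A call of 1 gene among 21 is therefore no result about the list. For HCT116, GRB2 had a log2 fold change of -0.56 with siMYBL2 (SE 0.16, adjusted p = 0.049) and of -0.72 with both siRNAs (SE 0.16, adjusted p = 0.000304) in the authors' deposited tables. For U2OS these deposited values were -1.57 with siMYBL2 (SE 0.19, adjusted p = 3.61e-13) and -1.35 with both (SE 0.23, adjusted p = 1.5e-07). After siMYBL1 no cascade gene was called by that test in either line, where 0.26% of all genes were called in HCT116 and 5.71% in U2OS. KSR1, a scaffold for RAF, MEK and ERK, was higher after the double knockdown in HCT116 (0.87, SE 0.29, adjusted p = 0.0447) and U2OS (0.87, SE 0.25, adjusted p = 0.00566) in the authors' deposited tables. After the double knockdown of U2OS, 4 of the 21 cascade genes were higher and 1 lower, where 6.55% of all genes were higher and 12.6% called in either direction. SHC1, an adaptor, was another of these 4, at 0.69 (SE 0.16, adjusted p = 0.000533) by the authors' deposited table. The median of the cascade list lay between -0.15 and 0.055 in all 6 tables.

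Of 15 other genes that ERK induces, 13 were listed in U2OS, where 5 were called higher after siMYBL1, 2 after siMYBL2 and 6 after the double knockdown, and none was called lower. Over all genes, 3.44%, 1.69% and 6.55% were higher in these comparisons. All 15 were listed in HCT116, where 1, 0 and 3 were higher and none lower, against 0.26%, 1.13% and 6.95% of all genes called in either direction. By the authors' deposited table of the U2OS double knockdown, FOSL1, an AP-1 subunit, had a log2 fold change of 1.21 (SE 0.24, adjusted p = 1.46e-05) and EPHA2, an ephrin receptor, had 0.89 (SE 0.17, adjusted p = 1.15e-05). After siMYBL2 in U2OS the authors' deposited table gave SPRED2, a relative of SPRED1, 0.68 (SE 0.19, adjusted p = 0.00948) and EPHA4, another ephrin receptor, 1.51 (SE 0.47, adjusted p = 0.0325). ERRFI1, a feedback inhibitor of EGFR, had 0.94 (SE 0.23, adjusted p = 0.00324) and MYC 0.93 (SE 0.23, adjusted p = 0.00346) after siMYBL1 in U2OS, by the authors' deposited table. In HCT116 the deposited tables gave MYC 0.61 (SE 0.14, adjusted p = 0.00771) after siMYBL1 and 0.57 (SE 0.15, adjusted p = 0.00409) after both, and EPHA2 0.72 (SE 0.17, adjusted p = 0.00145) after both. The list's median was 0.59 in the U2OS double knockdown and 0.29 in that of HCT116, against 0.0087 and -0.017 over all genes. Values that were not called went both ways. After siMYBL2 in U2OS, ERRFI1 (-0.57, SE 0.22), IER2 (-0.52, SE 0.23) and EGR1 (-0.56, SE 0.48) lay below 0, while the list's median was 0.059. FOS lay below 0 in all 6 comparisons with SEs of 1.07 to 2.40, too imprecise to read either way.

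Among 6 other phosphatases of this family, DUSP7, a cytoplasmic ERK phosphatase related to DUSP6, was called in U2OS after siMYBL1 (0.69, SE 0.22, adjusted p = 0.038) and after the double knockdown (0.66, SE 0.20, adjusted p = 0.0133) in the authors' deposited tables. DUSP8 was called in HCT116 after the double knockdown (1.25, SE 0.34, adjusted p = 0.00749) by the authors' deposited table. No other of the 6 was called in any of the 6 tables, and DUSP10 was not listed for the HCT116 double knockdown. Over all genes, 5.71% were called after siMYBL1 in U2OS, and 12.6% and 6.95% after the double knockdown in U2OS and HCT116. A call of 1 gene on so short a list is therefore no result about the list.

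**Figure D5:**
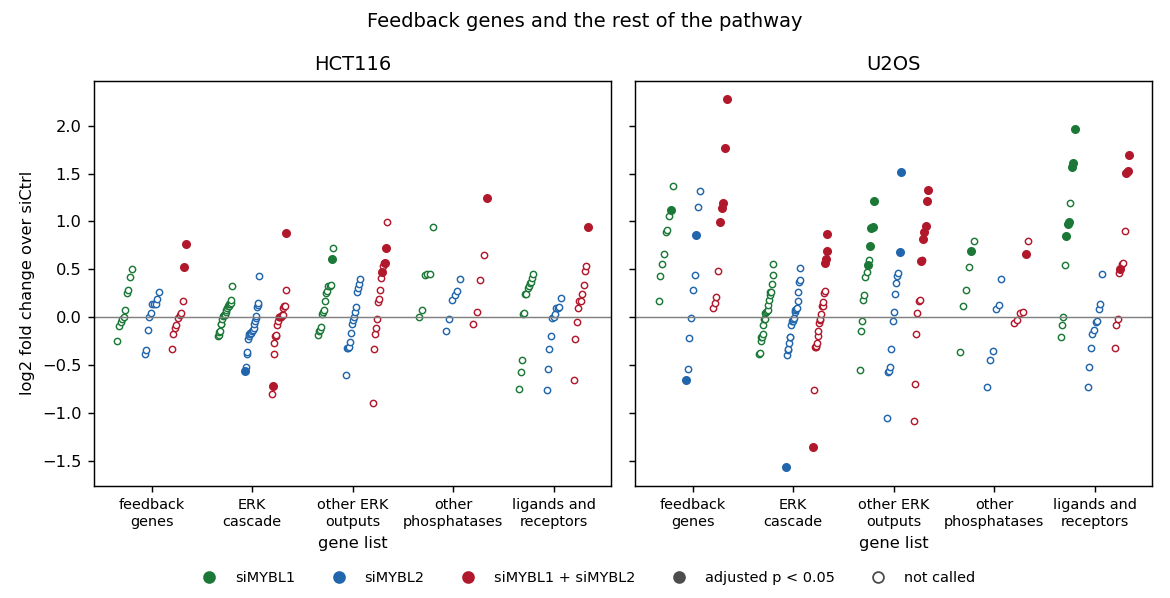
Log2 fold change over siCtrl for every listed gene of the feedback genes and 4 pathway lists, by line and knockdown, with filled points for an adjusted p under 0.05 in the authors' deposited tables. GRB2 is the filled cascade point below 0 after siMYBL2 and after both, and the filled points of ligands and receptors in U2OS belong to siMYBL1 and the double knockdown.

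The genes whose log2 fold changes over the 6 comparisons lay nearest to those of DUSP6, by root mean square difference among 10259 genes whose base mean reached 100 in all tables, were PCDH7 (0.31), UNC13A (0.42) and NFKBIE (0.42). For SPRY4 they were DNMBP (0.20), UNC13A (0.22) and PIP4P2 (0.23). These 6 comparisons share siCtrl libraries within each line. In U2OS the SEs of DUSP6 and SPRY4 themselves ran from 0.49 to 0.63, above each of these differences. Which genes lie nearest is therefore not settled by these values. DNMBP had values of 1.05, 0.86 and 1.39 after siMYBL1, siMYBL2 and both in U2OS and 0.10, 0.18 and 0.15 in HCT116, in the authors' deposited tables. None of the nearest genes is on the pathway lists.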

How the data were processed

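Trimming with cutadapt 4.4, quantification with Salmon 1.10.1, testing with DESeq2 1.40 and the build hg38 are named in the submitters' processing notes, without settings. The sources used here state neither annotation nor filters. The deposited data were 6 tables of the authors' comparisons, each of 4 libraries. Per the file headers, base mean is a signal, a mean of normalized counts. The authors' log2 fold change, with its SE, compares knockdown with siCtrl. The deposited Wald statistic is a score, and the authors' p-value and adjusted p-value were used with a threshold of 0.05.

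Genes were matched by name. The siCtrl level was computed as 2 times base mean over 1 plus the fold, and the knockdown level as that times the fold; each was set per 1000000 of its own group's sum (CPM). Differences between fold changes were divided by the root of summed squared SEs, which gave a 2-sided normal p. Benjamini-Hochberg adjustment ran over all shared genes (Python 3.11.15, pandas 2.3.3, scipy 1.17.1). The test was checked on simulated data, with independent noise drawn from the deposited SEs. That check covers neither the shared siCtrl libraries nor how well SEs from 2 libraries per group hold. The tables hold no values per library, so depth is unknown. With 2 libraries per group, p-values rest on the spread shared across genes. Members and lists were chosen with earlier results of these data known. The text names the 10 genes, MYBL1, MYBL2 and, from each pathway list and comparison, the up to 2 higher and 2 lower called genes of smallest adjusted p, and the 3 nearest profiles of the 2 members with the largest summed squared fold changes. FOS, IER2 and EGR1 are named in addition, as uncalled genes with values below 0 after siMYBL2 in U2OS. Alternatives were another threshold, a base mean minimum of 100, genes in all tables, centring on the median, and removal of the shared siCtrl variance. For the departure from the sum of single knockdowns, that variance was counted once and not removed.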

Additional observations from a re-analysis of the deposited data

Results flagged for a closer look

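The response of 3 feedback genes to the double knockdown differed between the lines by the test of the difference itself. The log2 fold change in U2OS exceeded that in HCT116 by 2.23 for DUSP6, 1.26 for ETV5 and 1.17 for ETV4. In U2OS siCtrl, DUSP6 stood at 1.49 normalized counts per 1000000 against 243.5 in HCT116, while ETV4 stood at 48.1 against 58.1. The part of the starting level and of the deeper MYBL2 loss in U2OS in these differences was not tested.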

How the results depend on the processing

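Of 844 values of single genes under an alternative, 828 kept their direction and side of the threshold. Only centring could reverse a direction, as the other alternatives leave the value itself unchanged, so this count is no measure of robust directions. Centring on the median of all genes reversed 4 values near 0: ETV4 after siMYBL2 (0.027) and DUSP1 after the double knockdown (0.023) in HCT116, DUSP6 between the double knockdown and siMYBL2 (-0.00149), and ETV5 between the double knockdown and siMYBL1 (0.0099) in HCT116. At a threshold of 0.01, 1 gene was called in the HCT116 double knockdown and 0 after siMYBL2 in U2OS. At 0.10, 4 were called after siMYBL1 in U2OS. With genes in all 6 tables, where DUSP4 is not listed, 1 was called in the HCT116 double knockdown. With a base mean of at least 100, which leaves out DUSP6 and SPRY4, 3 were called in the U2OS double knockdown. With the shared siCtrl variance removed, 1 was called between the double knockdown and siMYBL2 in HCT116, 3 in U2OS, and 2 between siMYBL1 and siMYBL2 in U2OS. Calls over all genes were not counted under these alternatives, so no share of all genes stands beside these counts. The SPRED1 siCtrl level of HCT116 was 715.7 normalized counts from the table of siMYBL1 and 831.6 from that of the double knockdown. No paired analysis was possible because the tables hold no values per library; leaving out each replicate and the fit with a replicate block were not run for the same reason.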
